A study of Homo sapiens with 37 samples.

Results

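The genes described here are 10 genes of glucose entry, the glucose transporters SLC2A1, SLC2A3, SLC2A8 and SLC2A14, the long non-coding RNA SLC2A1-DT that starts beside SLC2A1, and the alpha-arrestins TXNIP, ARRDC1, ARRDC2, ARRDC3 and ARRDC4. They were chosen by name, with earlier results of these data known. They are the rows of the count table whose Ensembl identifier carries such a symbol, and all 10 were found among 32055 genes. SLC2A14 lay under the filter on low counts, so 9 of the 10 entered the 10661 genes tested.

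The samples were 37 libraries of K562, a human erythroleukaemia cell line grown from a chronic myeloid leukaemia in blast crisis, of which 26 carried a knockout of the transcription factor ZBTB7A (KO) and 11 were Control. Per the methods, K562 cells were electroporated with a Cas9 plasmid bearing either of 2 gRNAs against ZBTB7A (KO) or no gRNA (Control), and single green fluorescent cells were sorted and grown into lines. Each line is therefore a clone, and neither group received any further agent. The labels do not say which clone or which gRNA a library came from, so p-values over libraries measure the spread between libraries, part of which may be technical. The comparison of KO with Control asks how the loss of this repressor, studied by the authors in connection with glycolysis, went with the messages of glucose entry.

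SLC2A1 encodes GLUT1, the main glucose transporter of red blood cell precursors and many dividing cells, and SLC2A3 encodes GLUT3, a transporter of high affinity known from neurons and white blood cells. GLUT8, from SLC2A8, sits mostly on internal membranes, and SLC2A14 is a close duplicate of SLC2A3 expressed mainly in testis. Alpha-arrestins are adaptors that recruit ubiquitin ligases to membrane proteins. TXNIP, which also binds thioredoxin, and ARRDC4 promote the removal of GLUT1 from the cell surface, and both genes are switched on by glucose through MondoA (MLXIP) and ChREBP (MLXIPL), factors that bind paired E boxes as dimers with MLX.

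SLC2A1 and SLC2A1-DT lie head to head on chromosome 1, SLC2A1 at chr1:42925353-42958893 on the minus strand and SLC2A1-DT at chr1:42959049-42996814 on the plus strand (GRCh38, GENCODE 44), with 155 bases between their annotated starts. That stretch is shown first because both transcripts that rose most among these genes start at its ends. The upstream bases of TXNIP and ARRDC4 are shown because they hold the E-box letters. The start of TXNIP, at chr1:145992435-145996579 on the minus strand, was preceded by a pair of CACGNG sites 5 bases apart, and that of ARRDC4, at chr15:97960703-97973833 on the plus strand, by a CACGTG. All 3 are RefSeq sequences of GRCh38.p14, written 5′ to 3′ on the strand of SLC2A1, TXNIP and ARRDC4 respectively, and capitals mark the motif letters.
SLC2A1 and SLC2A1-DT shared start region, chr1:42958894-42959048 (minus strand): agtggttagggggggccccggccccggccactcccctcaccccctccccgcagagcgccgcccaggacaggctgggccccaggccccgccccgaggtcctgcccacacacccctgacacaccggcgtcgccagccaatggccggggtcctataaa
TXNIP, chr1:145996580-145996829 (minus strand): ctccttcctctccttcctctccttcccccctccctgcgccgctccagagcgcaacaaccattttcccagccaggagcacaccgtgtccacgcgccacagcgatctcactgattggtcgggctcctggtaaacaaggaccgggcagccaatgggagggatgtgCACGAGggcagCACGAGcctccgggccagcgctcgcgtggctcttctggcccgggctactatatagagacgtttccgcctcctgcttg
ARRDC4, chr15:97960453-97960702 (plus strand): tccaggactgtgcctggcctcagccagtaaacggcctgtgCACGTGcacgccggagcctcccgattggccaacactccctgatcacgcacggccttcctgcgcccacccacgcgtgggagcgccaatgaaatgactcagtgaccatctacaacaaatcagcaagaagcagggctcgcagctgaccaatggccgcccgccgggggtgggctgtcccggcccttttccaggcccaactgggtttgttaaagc

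Of the 10 genes, 9 matched a promoter window of 300 bases (250 before and 50 after the start), SLC2A3 being the exception. Among 35116 such windows, 7.26% held CACGTG and 0.057% (20 windows) held a pair of CACGNG spaced by 5 bases, both strands read. CACGTG is itself a CACGNG, so the motifs overlap. Of the members, ARRDC4 held the CACGTG, 210 bases before the start, and TXNIP held the pair, its first letter 88 bases before the start. The window of SLC2A1 held neither, nor did those of SLC2A1-DT, SLC2A8, SLC2A14, ARRDC1, ARRDC2 and ARRDC3.

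Total counts of unique molecular identifiers (UMIs) ranged from 1070250 to 4270901 in KO and from 563235 to 4710809 in Control libraries. A log2 CPM below is the log2 of CPM (the count scaled to a total of 1000000 UMIs) after TMM scaling, with a prior count of 2. ZBTB7A itself gave 62 to 314 UMIs in KO and 21 to 296 in Control libraries (log2 fold change 0.12, SE 0.09, edgeR adjusted p = 0.331), and since 3′ reads pass over a frameshift, this does not check the edit. The 26 KO libraries fell into 6 separate clusters on the 1000 most variable genes other than the members (mean silhouette 0.69, the largest of the 2 to 6 clusters tried), named KO A (6 libraries), KO B (6), KO C (5), KO D (4), KO E (4) and KO F, the single library GGCCAC. The Control libraries fell into 3 (silhouette 0.607), Control A (5), Control B (5) and Control C, the single shallow library GTTTAT with 563235 UMIs. The KO silhouette was still rising at 6 clusters, the most tried (0.535 with 4 and 0.584 with 5), so a finer split was not examined. Whether a cluster is a clone cannot be told from the labels, and if it is, p-values over libraries are too small. The fold change of each member named below as having passed is therefore also given with every cluster summed to 1 sample, 6 KO sums against 3 Control sums, an alternative chosen after seeing the data.

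SLC2A1, SLC2A1-DT, SLC2A3 and ARRDC4 were higher in KO, by 1.77-fold to 3.20-fold, and were called, that is, they had an adjusted p under 0.05 by the quasi-likelihood test of edgeR together with a log2 fold change beyond 0.5 in either direction. None of the 9 tested members was called lower. Over all tested genes, 6.65% were called higher and 3.53% lower. At adjusted p below 0.05 alone, 7 of the 9 passed, 6 of them higher and 1 lower, where 33.8% of all genes did. The median log2 fold change of the 9 was 0.48, against -0.0046 over all genes. Because the members were chosen with earlier results of these data known, these comparisons with all genes are a description only. No member separated the groups without overlap, which 0.281% of tested genes did.

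With each cluster summed to 1 sample, the fold changes of the 4 called genes were 0.79 to 1.58 on the log2 scale and none passed by edgeR or limma-voom. In that fit SLC2A1, SLC2A1-DT and SLC2A3 had an unadjusted p below 0.05 by both tools. SLC2A3 alone had an adjusted p below 0.05 by DESeq2 (5.25e-04). By edgeR, 1 gene of 14717 passed there, by limma-voom 9 and by DESeq2 204.

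**Figure D1:**
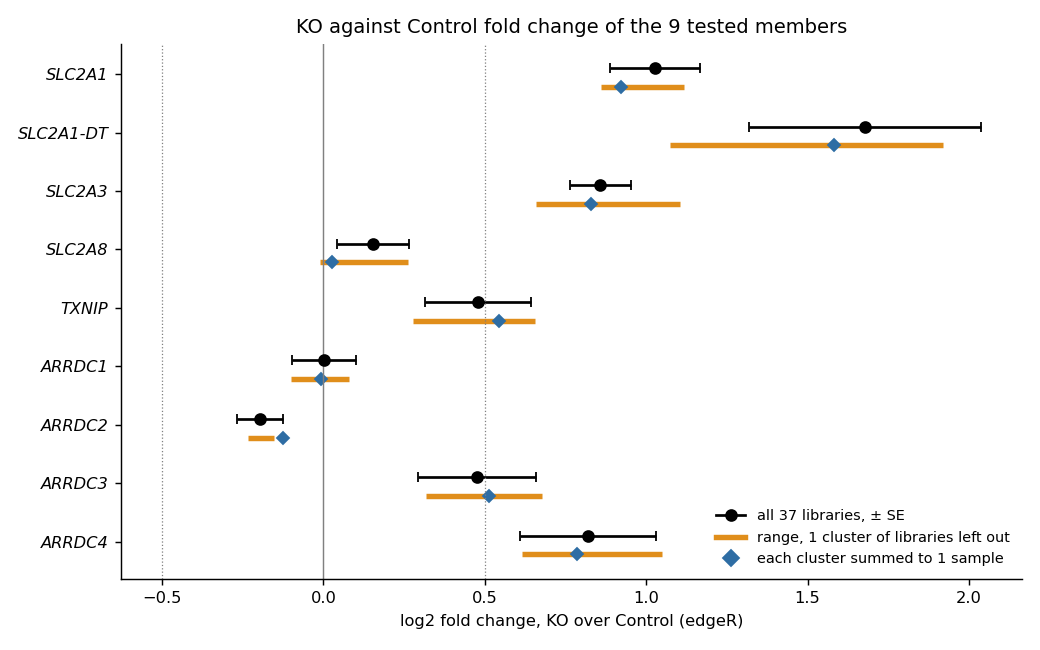
The log2 fold change of KO over Control is plotted for the 9 tested members, with black points and bars for the edgeR estimate over all 37 libraries ± SE, orange lines for the range when 1 cluster of libraries is left out, and blue diamonds for the fit with each cluster summed to 1 sample. Dotted lines mark 0.5 in either direction, and SLC2A1, SLC2A1-DT, SLC2A3 and ARRDC4 stay above 0.5 in all of these fits.

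SLC2A1, the GLUT1 gene, doubled in KO. Its level ran from 7.58 through a median of 7.76 to 7.93 log2 CPM in Control libraries and from 7.76 through 8.52 to 9.30 in KO libraries. In counts these were 134 to 979 UMIs per Control and 413 to 1502 UMIs per KO library. All KO libraries but 1 exceeded the highest Control, and the exception was GGCCAC at 7.76. The log2 fold change was 1.03 (SE 0.14, edgeR adjusted p = 5.37e-07), a 2.04-fold rise. A two-sided permutation test of the mean log2 CPM gave p = 1e-05, the smallest that 100000 permutations can give (for each member these permutation p-values are unadjusted). Leaving out GGCCAC gave 1.06 (adjusted p = 5.80e-08), and the 9 fits that leave out 1 cluster ran from 0.86 to 1.12. With the clusters summed it was 0.92 (SE 0.31, adjusted p = 0.287). An unnamed gene model lies antisense to SLC2A1 over its last 1000 bases, where 3′ tags fall, and whether the counting used the strand is not given in the sources used here, so reads of the pair may not be told apart.

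The KO libraries did not share 1 level of SLC2A1. In KO A it ran from 9.20 to 9.30 log2 CPM and in KO E from 9.13 to 9.26, and these 10 libraries stood apart from all others. In KO B it ran from 8.23 to 8.63, in KO C from 8.25 to 8.62 and in KO D from 8.38 to 8.51. The ranges of KO B, KO C and KO D overlapped each other, as did those of KO A and KO E, while KO F lay inside the Control range. The cluster medians exceeded the Control median by 1.46 (KO A) and 1.48 (KO E), against 0.61 to 0.74 in KO B, KO C and KO D. Between-cluster differences held 95.8% of the variance of SLC2A1 among KO libraries, where the median gene held 52.3%. These cluster levels are a description, since the clusters were drawn from the same libraries.

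SLC2A1-DT, the divergent transcript, was low in counts and rose most by fold. Control libraries ran from 0.96 through a median of 2.24 to 2.98 log2 CPM (2 to 22 UMIs), and KO libraries from 2.27 through 3.23 to 5.16 (9 to 61 UMIs). The groups overlapped, 17 of 26 KO libraries exceeding the top Control value and none below the lowest. The log2 fold change was 1.68 (SE 0.36, edgeR adjusted p = 4.15e-04), a 3.20-fold rise, and the permutation p was 8.00e-05. Its highest libraries were those of KO A, at 4.34 to 5.16, followed by KO E at 3.68 to 4.37, the same clusters in which SLC2A1 was highest. The other clusters were lower, KO C at 3.01 to 3.47, KO D at 2.50 to 3.19, KO B at 2.27 to 3.01 and KO F at 2.59. Without KO A the log2 fold change was 1.07 (adjusted p = 4.65e-04), and with the clusters summed it was 1.58 (SE 0.62, adjusted p = 0.358). An unnamed gene model lies antisense to SLC2A1-DT, though not over its last 1000 bases.

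SLC2A3, the GLUT3 gene, rose in nearly all KO libraries, in a different order of clusters from SLC2A1. Control libraries ran from 6.47 through a median of 6.84 to 7.29 log2 CPM (63 to 595 UMIs), and KO libraries from 7.17 through 7.69 to 8.07 (209 to 1008 UMIs). Only 2 KO libraries, both of KO A, fell inside the Control range, and 24 of 26 lay above it. That was a log2 fold change of 0.86 (SE 0.09, edgeR adjusted p = 4.84e-09), a 1.81-fold rise, with a permutation p of 1e-05, again the smallest possible. The fits without 1 cluster ran from 0.66 to 1.10, and with the clusters summed it was 0.83 (SE 0.16, adjusted p = 0.144). It was highest in KO C, at 7.86 to 8.07, and KO B, at 7.48 to 8.03, clusters of intermediate SLC2A1. KO D lay at 7.48 to 7.72 and KO E at 7.60 to 7.94, and the lowest were KO A, at 7.17 to 7.64, and KO F at 7.29. The Control libraries were themselves split, from 6.47 to 6.71 in Control A and from 6.98 to 7.29 in Control B, with Control C at 6.84. The log2 fold change was 0.66 without Control A and 1.10 without Control B.

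**Figure D2:**
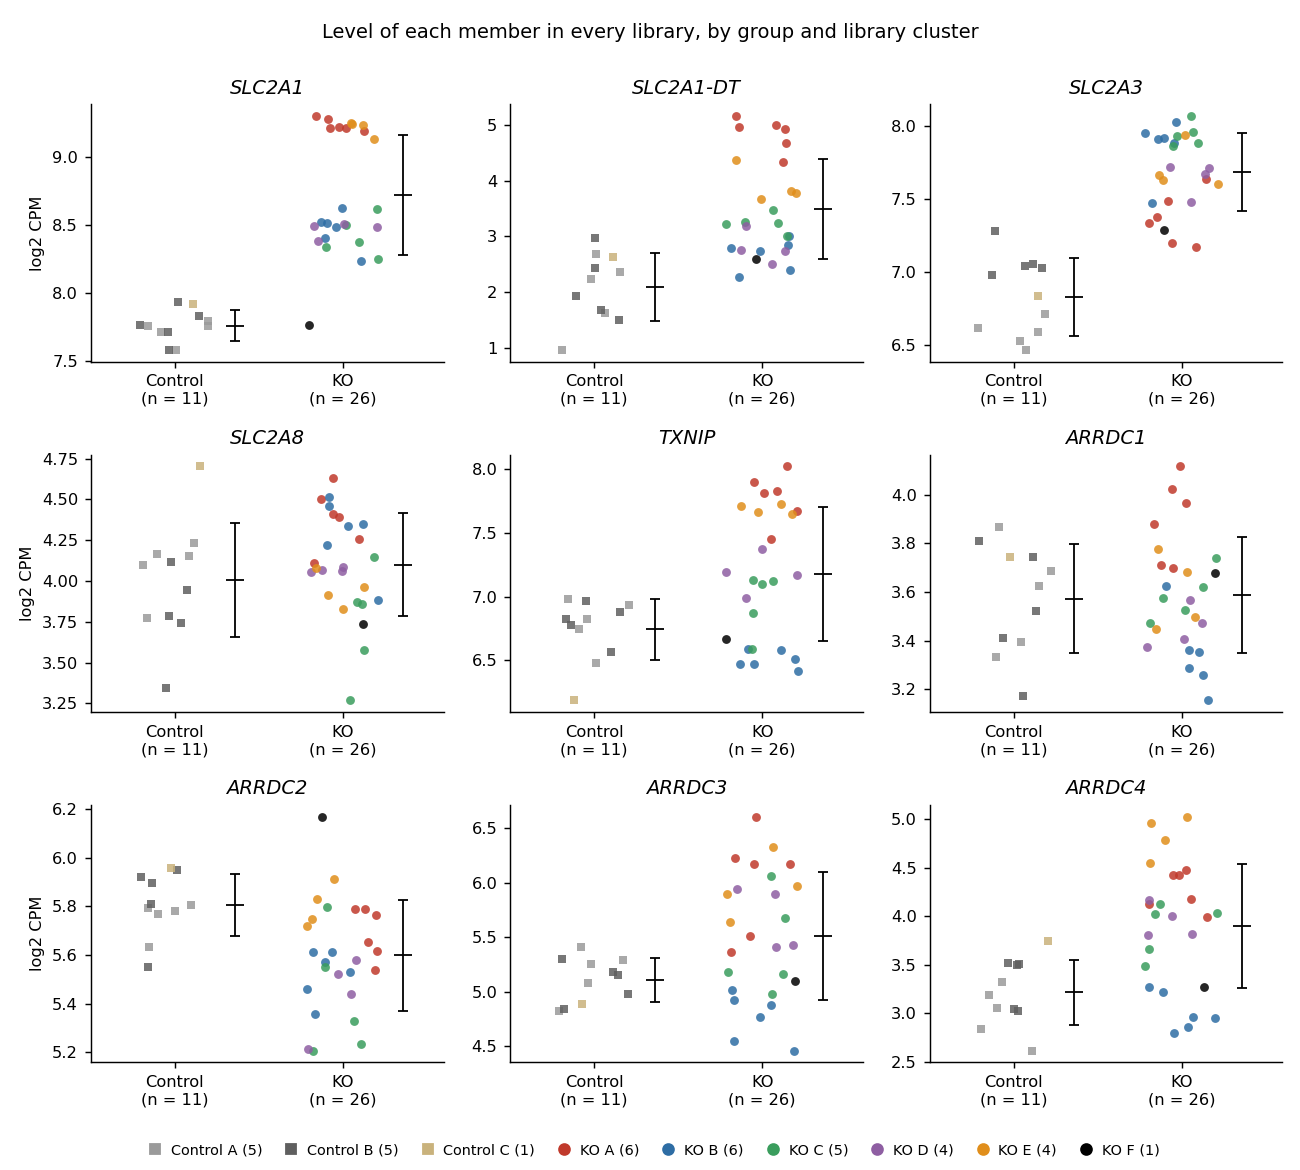
Each panel shows 1 gene, with its level in log2 CPM on the vertical axis and 1 point per library in the 11 Control (squares) and 26 KO (circles) libraries, coloured by cluster, beside the group mean ± SD. In SLC2A1 the KO A and KO E libraries form a band at 9.13 to 9.30, above a band of KO B, KO C and KO D at 8.23 to 8.63, and in TXNIP, ARRDC3 and ARRDC4 the KO B libraries are the lowest or among the lowest of the KO libraries.

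SLC2A8 and SLC2A14 added little. SLC2A8 ran from 3.35 through 4.10 to 4.701 log2 CPM in Control libraries (14 to 64 UMIs) and from 3.27 through 4.08 to 4.63 in KO libraries (12 to 75 UMIs). The groups overlapped, with 25 of 26 KO libraries inside the Control range, and the log2 fold change was 0.15 (SE 0.11, edgeR adjusted p = 0.307). The top of that range was the shallow Control GTTTAT, with 14 UMIs. The next highest Control was CGGTGG at 4.23, and KO A and KO B libraries reached 4.63 and 4.51. SLC2A14 was counted at 0 to 7 UMIs in KO and 0 to 3 in Control libraries, and it was at 0 in 6 KO and 4 Control libraries. In sum it gave 45 UMIs in KO, 0.353% of those of SLC2A3, and 14 in Control, 0.356%. No run of 50 bases in the last 500 of the main SLC2A3 transcript occurs in a SLC2A14 transcript, but 19.7% of those in the last 500 bases of SLC2A14 occur in SLC2A3 transcripts, so its few counts are uncertain.

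The summed UMIs of the 4 transporters, without TMM scaling, rose from 339 ± 30.03 CPM (SD, n = 11) in Control to 665 ± 123 CPM (SD, n = 26) in KO. Without that scaling, 26 of 26 KO libraries exceeded the highest Control (two-sided permutation p = 1e-05, the smallest that could be reached). That p treats libraries as separate samples. The sum was not a planned test, and most of it comes from SLC2A1 and SLC2A3, both called above. The lowest KO library was GGCCAC at 388 CPM, where the highest Control library, TACTAT, had 376. Their TMM factors were 1.018 and 0.9675. Dividing each sum by its factor puts GGCCAC below TACTAT, so the full separation does not hold with TMM scaling. A 3′ tag is counted once per captured molecule whatever the transcript's length, so these counts can be added. By cluster, the mean sum was 388 to 826 CPM in the 6 KO clusters and 315 to 375 CPM in the 3 Control clusters. The share held by SLC2A1 was 62.4% ± 3.54 in Control and 64.9% ± 8.80 in KO (two-sided permutation p = 0.374). Within KO, however, that share ran from 73.1% to 79.2% in KO A and from 69.9% to 74.5% in KO E, against 52.1% to 66.6% over KO B, KO C, KO D and KO F. The Control libraries lay between 55.1% and 67.1%.

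**Figure D3:**
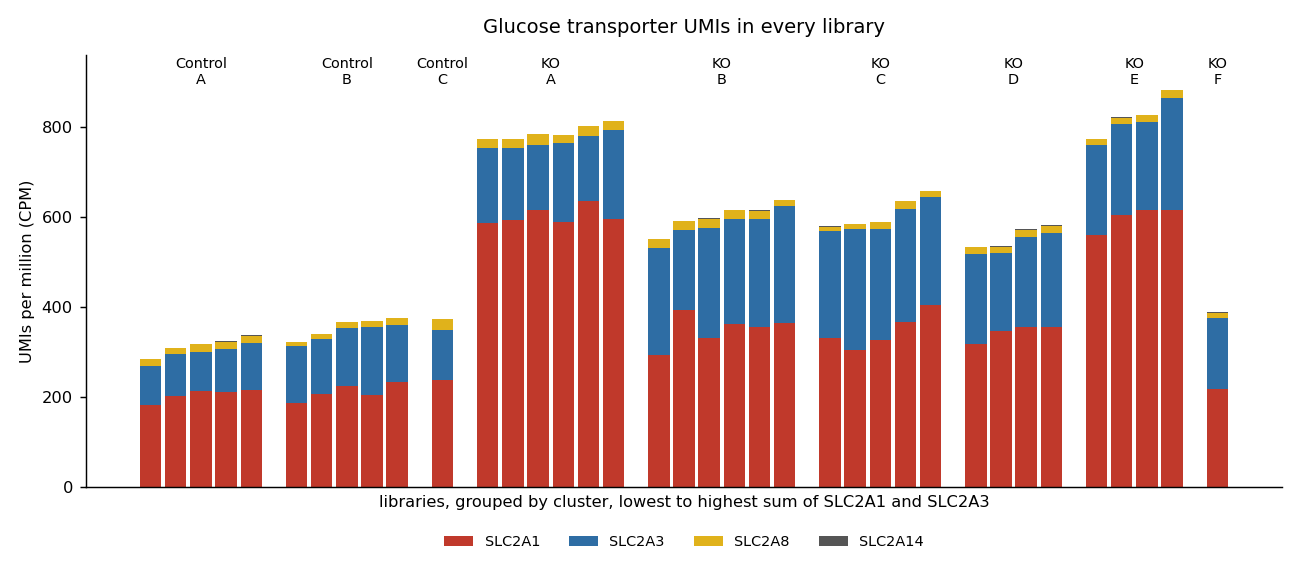
Stacked bars give the UMI level (CPM, not TMM scaled) of SLC2A1, SLC2A3, SLC2A8 and SLC2A14 in each of the 37 libraries, ordered by cluster. The Control bars end at 376 or lower, those of KO B, KO C and KO D between 534 and 659, and those of KO A and KO E between 773 and 882, where SLC2A1 makes up 69.9% to 79.2% of the transporter UMIs.

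TXNIP, the arrestin that binds thioredoxin and restrains glucose uptake, was higher in KO by less than the call asks. Control libraries ran from 6.19 through a median of 6.82 to 6.98 log2 CPM (40 to 561 UMIs), and KO libraries from 6.42 through 7.15 to 8.02 (156 to 605 UMIs). The groups overlapped, since 17 KO libraries exceeded every Control and 9 fell inside the Control range. The low end of that range was the shallow library GTTTAT, with 40 UMIs, and the next lowest Control was AAAGTT at 6.48. In the fit it was 0.48 on the log2 scale (SE 0.16, edgeR adjusted p = 0.0223), a 1.39-fold rise, with a permutation p of 0.0129. It was lost without Control A (0.50, adjusted p = 0.121), Control B (0.52, 0.0946), KO A (0.28, 0.144) or KO E (0.39, 0.0679), and with the clusters summed it was 0.54 (SE 0.30, adjusted p = 0.508).

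The TXNIP level followed the clusters closely, with 92.5% of its KO variance between them. It was highest in KO A, at 7.45 to 8.02 log2 CPM, and KO E, at 7.64 to 7.72, then KO D at 6.99 to 7.37 and KO C at 6.59 to 7.13. KO B, at 6.42 to 6.59, lay wholly in the lower part of the Control range, whose low end is GTTTAT, although SLC2A1 in the same libraries was above every Control. KO F was at 6.67. The clusters highest in TXNIP were thus those highest in SLC2A1, while KO B combined raised SLC2A1 with a TXNIP median of -0.33 relative to the Control median.

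ARRDC4, the closest relative of TXNIP in sequence and in its control by glucose, was called higher. Control libraries ran from 2.61 through a median of 3.19 to 3.74 log2 CPM (7 to 48 UMIs), and KO libraries from 2.79 through 4.01 to 5.03 (11 to 69 UMIs). The groups overlapped, with 17 KO libraries above the highest Control library and 9 within the Control range. The top of that range was the shallow library GTTTAT, with 7 UMIs, and the next highest Control was TACTAT at 3.51. This gave a log2 fold change of 0.82 (SE 0.21, edgeR adjusted p = 0.00250), a 1.77-fold rise, and the permutation p was 0.00208. Without Control A it was 0.66 (adjusted p = 0.101), without Control B 0.97 (0.0148), and with the clusters summed 0.79 (SE 0.40, adjusted p = 0.458). KO E was the highest cluster, at 4.55 to 5.03, followed by KO A at 3.99 to 4.48, KO D at 3.81 to 4.17 and KO C at 3.48 to 4.13. KO B, at 2.79 to 3.27, and KO F, at 3.27, lay inside the Control range, as they did for TXNIP.

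ARRDC3, an arrestin known for the degradation of beta-adrenergic receptors and integrin beta 4, moved in both directions among KO libraries. Control libraries ran from 4.82 through 5.15 to 5.41 log2 CPM (16 to 161 UMIs), and KO libraries from 4.46 through 5.47 to 6.61 (48 to 215 UMIs). In KO, 14 libraries exceeded every Control and 3, all of KO B, lay below the lowest. Its log2 fold change was 0.48 (SE 0.18, edgeR adjusted p = 0.0420), and the permutation p was 0.0337. It kept an adjusted p below 0.05 in 3 of the 9 fits that leave out 1 cluster, which gave 0.32 (without KO A) to 0.68 (without KO B), and with the clusters summed it was 0.51 (SE 0.28, adjusted p = 0.4995). KO A, at 5.37 to 6.61, and KO E, at 5.64 to 6.33, were again the highest, and KO B, at 4.46 to 5.01, the lowest. An antisense gene, ARRDC3-AS1, overlaps ARRDC3, though not its last 1000 bases.

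ARRDC2 and ARRDC1 did not follow. ARRDC2, an arrestin of less known function, was lower in KO, from 5.55 through 5.80 to 5.96 log2 CPM in Control libraries (34 to 276 UMIs) and from 5.21 through 5.60 to 6.17 in KO libraries (49 to 182 UMIs). The groups overlapped, with 10 KO libraries below the lowest Control library and 1, GGCCAC, above the highest. Its log2 fold change was -0.20 (SE 0.07, edgeR adjusted p = 0.0302, permutation p = 0.00746), which became -0.22 (0.00611) without GGCCAC and -0.12 (0.794) with the clusters summed. It lost an adjusted p below 0.05 in 5 of the 9 fits that leave out 1 cluster, without Control A (-0.23, 0.0851), Control B (-0.17, 0.204), KO B (-0.17, 0.0941), KO C (-0.15, 0.0867) or KO D (-0.16, 0.0793).

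ARRDC1, which buds off vesicles at the plasma membrane, ran from 3.17 through 3.62 to 3.87 log2 CPM in Control (7 to 60 UMIs) and from 3.15 through 3.57 to 4.12 in KO libraries (13 to 43 UMIs). Of the KO libraries 21 lay inside the Control range, and the log2 fold change was 0.0015 (SE 0.10, edgeR adjusted p = 0.995). The 4 KO libraries above the Control range were all of KO A. The last 1000 bases of ARRDC1 overlap the antisense gene ARRDC1-AS1 and an unnamed gene model on the same strand as ARRDC1. Reads of either may not be told apart from those of ARRDC1.

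SLC2A1, TXNIP and ARRDC3 were more spread among KO than among Control libraries. The SD of log2 CPM was 3.87 times as large in KO for SLC2A1 (two-sided permutation of deviations from the group median, p = 0.00823), 2.17 times for TXNIP (0.00311) and 2.89 times for ARRDC3 (0.00144). For ARRDC4 it was 1.91 times (0.0684), for ARRDC2 1.78 times (0.0889) and for SLC2A1-DT 1.48 times (0.244). SLC2A3, SLC2A8 and ARRDC1 had ratios of 0.998, 0.903 and 1.08 (permutation p = 0.919, 0.878 and 0.904). The median gene had a ratio of 1.25, and 72.2% of all tested genes had the larger SD in KO. The 9 permutation p-values treat libraries as separate samples and are unadjusted, since the genes were chosen with results of these data known. Among AT-rich barcodes alone p was 0.0514 for SLC2A1, 0.0442 for TXNIP and 0.0164 for ARRDC3.

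Since the KO libraries fell into separate clusters, no correlation between members over all of them is given. Within KO A and within KO B, each with 6 libraries, 72 correlations were computed, and none had an adjusted p below 0.05. With 6 libraries the smallest exact p is 0.00278, so 1 pair alone could not pass an adjustment over 72, and this count says nothing of how members relate inside a cluster. At an unadjusted exact permutation p below 0.05 there were 3, SLC2A3 with ARRDC1 in KO A (Pearson r 0.90, exact p = 0.0222) and, in KO B, SLC2A3 with ARRDC1 (r -0.89, exact p = 0.0458) and TXNIP with ARRDC4 (r 0.92, exact p = 0.0167). All 3 had an adjusted p of 0.80 or more. SLC2A1 and TXNIP gave r -0.42 (rho -0.31, exact p = 0.422 and 0.564) in KO A and 0.32 (rho -0.029, exact p = 0.553 and 1.0) in KO B.

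With the mean of each cluster removed, over 25 KO libraries and 36 pairs, again no pair had an adjusted p below 0.05. The lowest was SLC2A3 with ARRDC4, r -0.56 (rho -0.56, permutation p within clusters 0.00419, adjusted 0.151). SLC2A1 with TXNIP gave r 0.21 (rho 0.025, permutation p 0.425). Leaving out the 2 libraries farthest from the median gave -0.44 and 0.12 for these pairs.

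**Figure D4:**
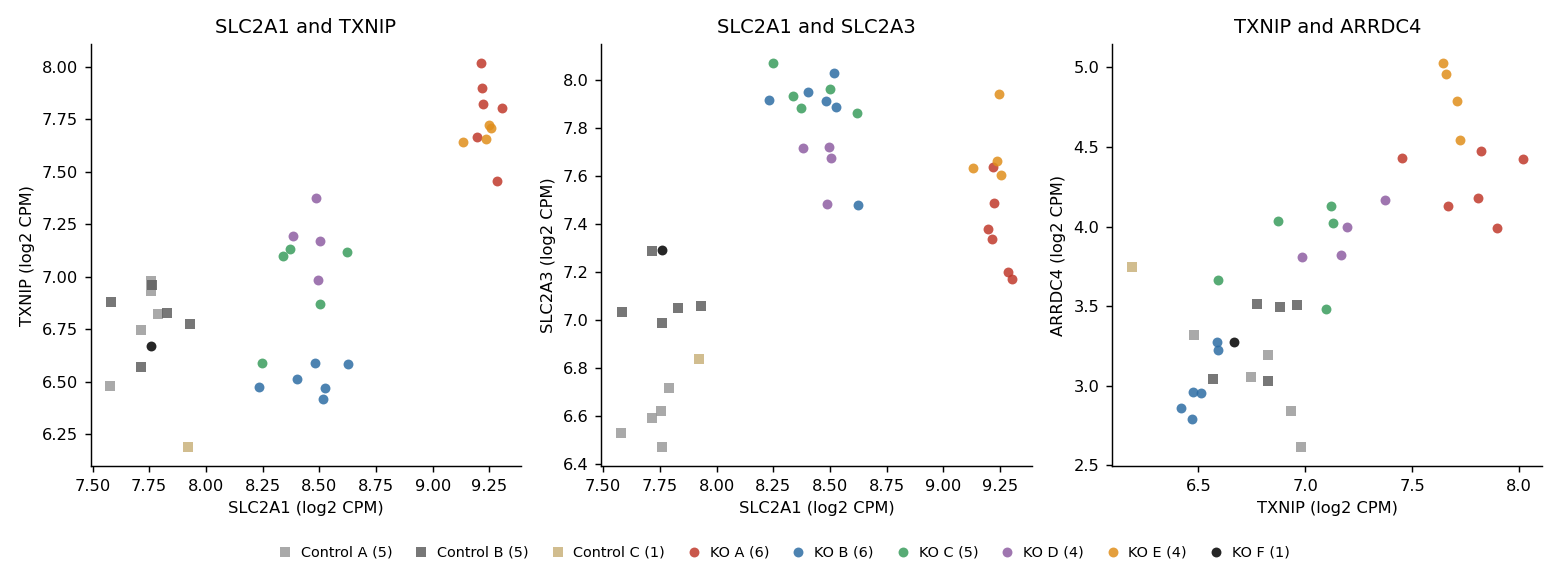
Each point is 1 library, placed by the log2 CPM of SLC2A1 and TXNIP, of SLC2A1 and SLC2A3, and of TXNIP and ARRDC4, with squares for Control, circles for KO and colours for clusters. KO A and KO E lie together at SLC2A1 above 9.13, with TXNIP above 7.45 and with SLC2A3 mostly below that of KO B and KO C, while KO B has the lowest TXNIP and ARRDC4 among the larger KO clusters.

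The genes whose pattern over the 26 KO libraries was most like that of SLC2A1, by Pearson r of log2 CPM among 8587 genes with at least 10 CPM, were FAM210B (0.938), a mitochondrial protein of haem synthesis, TAL1 (0.932), an erythroid transcription factor, and ALAS2 (0.924), the erythroid enzyme that begins haem synthesis. ALAS2 had a log2 fold change of 1.41 (SE 0.39, edgeR adjusted p = 0.00577) and FAM210B 0.53 (SE 0.13, 0.00128). All points share their clusters, and these coefficients are descriptions with no p.

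For SLC2A3 the most alike were FGF2 (0.856), a growth factor, UBE2L6 (0.855), the ISG15 conjugating enzyme, and NCOA7 (0.835). For TXNIP they included CTSL (0.926), a lysosomal protease, and SLC7A8 (0.924), an amino acid transporter. SLC2A1-DT was most like BCAN-AS1 (0.932), CMAS (0.923) and QSOX1 (0.919). ARRDC4 was most like ACE (0.923), MICAL2 (0.907) and UBAC1 (0.901).

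Erythroid markers were abundant in every library and did not rise as a list. Of 11 tested, ALAS2 rose, GATA1, KLF1 and TFRC fell and 7 did not pass. Their summed level was 3005 to 9808 CPM in KO and 4100 to 8702 CPM in Control libraries. It was 6997 to 9808 CPM in KO A and KO E, the clusters highest in SLC2A1, and 3005 to 6629 CPM in the other KO clusters. Of the other marker lists, 3 megakaryocyte genes summed to 0 to 23.6 CPM in KO and 0 to 6.004 CPM in Control, 5 monocyte and granulocyte genes to 5.15 to 15.4 and 2.88 to 10.2 CPM, and 4 lymphoid genes to 7.12 to 153 and 9.86 to 25.01 CPM. On the log2 scale PTPRC, the pan-leukocyte CD45 gene, rose by 1.82 (SE 0.44, edgeR adjusted p = 0.00152) and ITGAM by 1.23 (SE 0.32, 0.00248). PTPRC was uneven among KO libraries, with an SD of 1.48 log2 CPM against 0.37 in Control. ITGAM was low in counts, with 267 UMIs over all KO and 64 over all Control libraries. None of the listed marker genes in the table was at 0 in every library. The part of these differences in the levels of the members was not tested.

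Barcodes were unevenly spread, AT-rich in 8 of 11 Control and 12 of 26 KO libraries and GC-rich in 1 and 12. Within the AT-rich libraries the log2 fold changes were 1.08 for SLC2A1, 1.76 for SLC2A1-DT, 0.80 for SLC2A3, 0.62 for TXNIP and 0.78 for ARRDC4, each with an edgeR adjusted p between 1.07e-05 and 0.0180. ARRDC3 had 0.56 there (0.0693). The GC-rich libraries held 1 Control and gave no comparison. KO A and KO E held barcodes of different classes, 5 AT-rich of 6 and 0 of 4.

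Beyond the members, 60 other genes of glucose uptake and its control were listed, of which 54 were in the table and 38 were tested. This list too was chosen with earlier results of these data known. Of the 38, 3 were called higher and 2 lower, where 6.65% of all tested genes were called higher and 3.53% lower. At an edgeR adjusted p below 0.05, 10 were higher and 7 lower in KO, 44.7% of those tested against the 33.8% of all genes, with a median log2 fold change of 0.06. With 1 cluster left out 12 to 19 passed, and with the clusters summed none of 43 tested passed by edgeR, limma-voom or DESeq2, while 9, 11 and 8 had an unadjusted p below 0.05.

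Among the glucose sensing factors, MLXIPL rose by 0.80 (SE 0.24, edgeR adjusted p = 0.00800) and MLXIP by 0.33 (SE 0.09, 0.00644), while their partner MLX had -0.16 (0.114). MLXIPL was low in counts, with 304 UMIs over the 26 KO and 103 over the 11 Control libraries. ARRB2, beta-arrestin 2, rose by 0.76 (SE 0.08, 4.00e-09) and ARRB1 had 0.03 (0.761). Of the ubiquitin ligases with WW domains that alpha-arrestins recruit, WWP2 fell by 0.73 (SE 0.09, 6.42e-08), NEDD4L rose by 0.27 (SE 0.07, 0.00218), and the other 5 tested did not pass.

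Of the membrane proteins that bind GLUT1 or its neighbours, STOM (stomatin) rose by 0.77 (SE 0.12, edgeR adjusted p = 7.63e-06) and GIPC1, which binds the GLUT1 tail, by 0.36 (SE 0.08, 3.98e-04), while the adducin ADD2 fell by 0.89 (SE 0.12, 4.58e-07). HK2, a hexokinase that traps glucose in the cell, fell by 0.27 (SE 0.06, 6.12e-04), and HK1 had 0.13 (0.106). TXN, the thioredoxin bound by TXNIP, fell by 0.19 (SE 0.05, 0.00363).

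The recycling genes went both ways. SNX27, which returns GLUT1 to the surface with retromer, rose by 0.35 (SE 0.09, edgeR adjusted p = 0.00168) and the retromer subunit VPS26A by 0.13 (SE 0.05, 0.0191). The other retromer subunits VPS29 and VPS35 fell by 0.15 (SE 0.05, 0.0155) and 0.14 (SE 0.04, 0.00578). Among the kinases and Rab GAPs, TBC1D1 rose by 0.30 (SE 0.06, 3.46e-04) and AKT2 fell by 0.24 (SE 0.06, 0.00264). The kinase subunit PRKAB1 rose by 0.22 (SE 0.08, 0.0251).

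**Figure D5:**
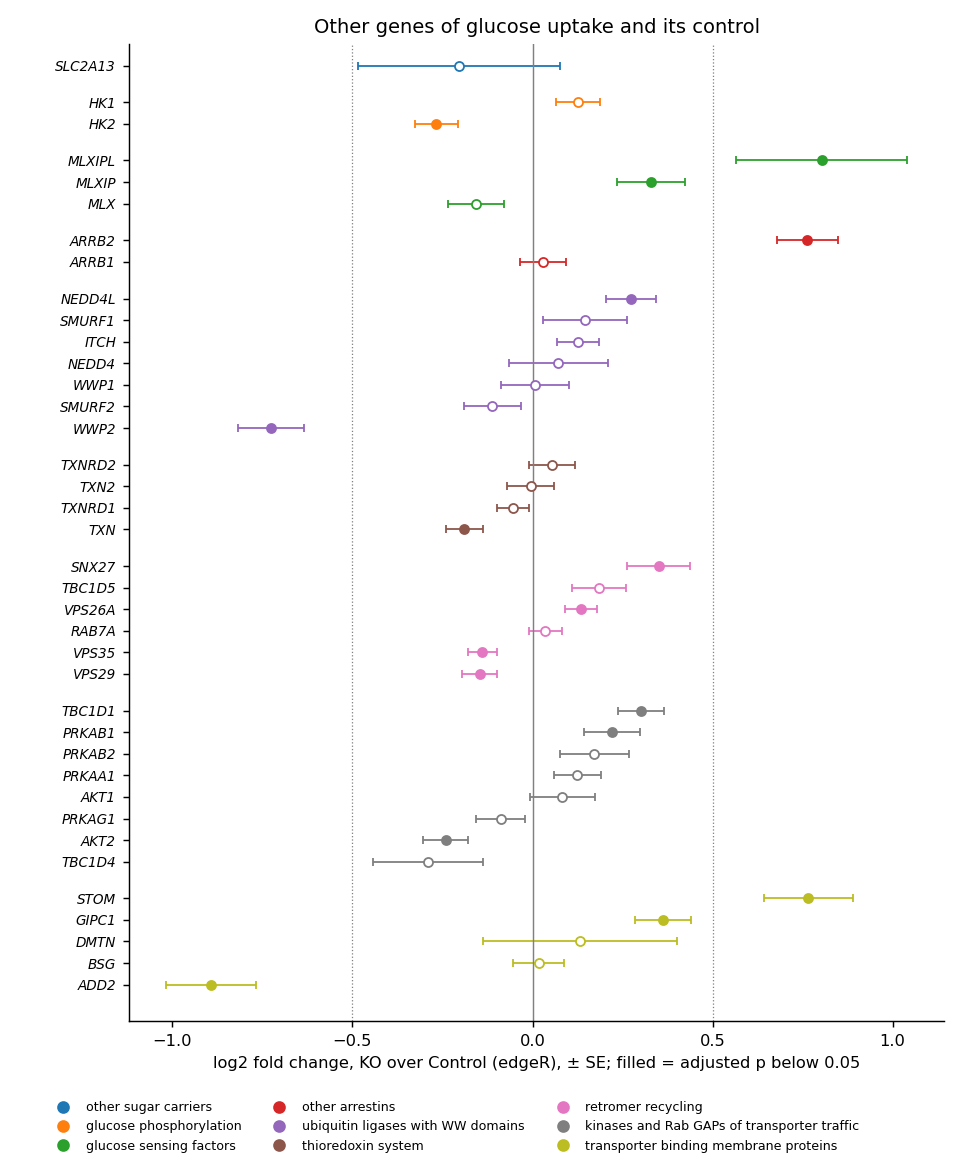
The log2 fold change of KO over Control (edgeR, ± SE) is plotted for the 38 tested genes of glucose uptake other than the members, grouped and coloured by list, with filled points for an adjusted p below 0.05. Of the 17 filled points 10 lie to the right of 0, and only MLXIPL, ARRB2, STOM, WWP2 and ADD2 lie beyond the dotted lines at 0.5.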

How the data were processed

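The authors deposited UMI counts per gene for bulk SCRB-seq libraries of 10000 cells each, a 3′ protocol with 6-base sample barcodes; reads were aligned with STAR 2.6.0a and counted with zUMIs on GRCh38 (Ensembl 84), with the strand setting not given in the sources used here. Groups were taken from the labels. Symbols came from a table of gene names, for 31323 of 32055 identifiers. All 37 libraries entered edgeR 4.0.16 in R 4.3.3 (default filterByExpr, TMM, robust quasi-likelihood, Benjamini-Hochberg over all tested genes, calls at adjusted p below 0.05 and absolute log2 fold change above 0.5); the SE is the fold change over the root of F. The study used limma, and limma 3.58.1 (voom), DESeq2 1.42.0, other scalings, filters, barcode classes, thinning and left-out libraries were alternatives. On simulated counts for this comparison (200 genes changed 2-fold, 10517 genes), edgeR recovered 97% with 1 false call. The simulated libraries were independent and held no clusters, so this cannot show how many calls are false where libraries share a cluster. Permutation tests drew 100000 resamples with Python 3.11.15 and scipy 1.17.1, given unadjusted for levels and spreads, or were exact in clusters of 6, with Benjamini-Hochberg adjustment over all pairs. Libraries were clustered by average linkage on 1 minus Pearson r. UMI intervals were not used, and p-values cover the spread between libraries only. The text names all members, the listed uptake genes that were called and up to 12 more with adjusted p below 0.05, the 3 genes most like SLC2A1, SLC2A3, TXNIP and each further called member, and ZBTB7A; some of these results are not reported here. The members and lists were chosen with earlier results of these data known.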

Additional observations from a re-analysis of the deposited data

How the results depend on the processing

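SLC2A1, SLC2A1-DT and SLC2A3 kept their direction and an adjusted p below 0.05 under each other test, scaling, filter, barcode set and thinning that gave a value and with any library left out, at log2 fold changes of 0.96 to 1.08, 1.34 to 1.80 and 0.79 to 0.92; so did ARRDC4, at 0.65 to 0.88. Thinning every library to the smallest total left SLC2A1-DT, ARRDC1 and ARRDC4 under the filter. The number of members called was 4 with limma-voom, RLE, no filter, at least 10 CPM and thinning. After thinning the 4 were SLC2A1, SLC2A3, TXNIP (0.54, edgeR adjusted p = 0.0394) and ARRDC3 (0.57, 0.0386). The number was 5 in AT-rich barcodes, and 6 with DESeq2, library size alone and the barcode class as covariate, where TXNIP and ARRDC3 passed 0.5. It was 4 to 6 with 1 library left out, 3 to 6 with 1 cluster left out and 0 with the clusters summed. TXNIP lost its adjusted p below 0.05 with limma-voom (0.37, adjusted p = 0.0546) and without a filter (0.46, 0.0606). ARRDC3 lost it with limma-voom (0.34, 0.130), without a filter (0.46, 0.113), in AT-rich barcodes (0.56, 0.0693) and in 17 of 37 fits with 1 library left out (0.43 to 0.49, and 0.43 to 0.52 over all 37), those without Control replicates 1, 3, 6, 7, 8, 9 or 11 or KO replicates 2, 4, 5, 8, 9, 12, 13, 20, 22 or 24. ARRDC2 lost it with library size alone (-0.16, 0.0852), thinned (-0.0049, 0.982) and without Control replicate 4, 8 or 9 (-0.18 in each, and -0.22 to -0.18 over all 37). ARRDC1 changed sign with limma-voom (-0.029), DESeq2 (-0.018), no filter (-0.014) and the clusters summed (-0.0075), and ran from -0.030 to 0.043 with 1 library left out. The cause was not tested for any of these.

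With 1 cluster left out, chosen after seeing the data, log2 fold changes ran from 0.86 to 1.12 (SLC2A1), 1.07 to 1.92 (SLC2A1-DT), 0.66 to 1.10 (SLC2A3), -0.0090 to 0.26 (SLC2A8), 0.28 to 0.66 (TXNIP), -0.099 to 0.081 (ARRDC1), -0.23 to -0.15 (ARRDC2), 0.32 to 0.68 (ARRDC3) and 0.62 to 1.05 (ARRDC4). With the clusters summed they were 0.92, 1.58, 0.83, 0.03, 0.54, -0.0075, -0.12, 0.51 and 0.79 in the same order, and no adjusted p by edgeR was below 0.05; that fit has 9 samples. Of the listed uptake genes, 10 passed after thinning and 0 with the clusters summed, against 17. Among AT-rich barcodes 2 members had an unadjusted p of spread below 0.05, against 3, and the difference in spread of SLC2A3 changed sign (0.033). No pair of members reached an adjusted p below 0.05 within clusters with a prior count of 0.5, library size alone, thinning, a library left out or cluster means removed; within clusters 1 pair alone could not have reached it. The correlations in AT-rich or GC-rich barcodes alone were not run, as no cluster of 6 lies in 1 class, and leaving out GGCCAC leaves them as they are. Called genes were higher in 65.3% of cases with TMM, 65.8% with RLE and 70.6% with library size alone. No paired analysis was possible because the labels give no replicate numbers. The replicate numbers above were assigned here, counting the libraries of each group in alphabetical order of barcode. Genes of few UMIs, SLC2A14, SLC2A1-DT, ARRDC1, ARRDC4, MLXIPL and ITGAM, are limited by depth.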

Other observations

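Of the 16 listed uptake genes in the table that lay under the filter on low counts, the one with most UMIs was SLC2A4, the insulin-responsive transporter, with 246 UMIs over the 26 KO and 103 over the 11 Control libraries. SLC2A6 gave 87 and 20 UMIs, SLC2A11 52 and 27, and PRKAG2 86 and 59. The fructose transporter SLC2A5 gave 4 and 3, and the sodium-coupled carriers SLC5A2, SLC5A9, SLC5A10 and SLC5A11 gave 0 to 9 UMIs in either group. None was tested. SLC2A13, the inositol carrier, was tested and had a log2 fold change of -0.21 (SE 0.28, edgeR adjusted p = 0.614).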
